A study of Mus musculus with 6 samples.

Results

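Axin2, Nkd1, Nkd2, Notum, Znrf3, Rnf43, Bambi, Apcdd1, Tnfrsf19 and Lgr6 are genes that canonical Wnt signalling switches on, and most of their products feed back on the pathway. They were examined by RNA sequencing of polyadenylated RNA from the ventral part of the mouse lumbar spinal cord, in 3 Gde2KO libraries and 3 WT libraries. The Gde2KO mice lack GDE2, a membrane enzyme encoded by Gdpd5 that releases proteins from their glycosylphosphatidylinositol anchors. Both groups were 5 weeks old and on the C57BL/6 background. How the allele was made, the sex of the mice and whether each library is a separate mouse are not given in the sources used here. The title of the series concerns activation of Wnt signalling by GDE2 in neurons and the maturation of oligodendrocytes, and the comparison of the genotypes asks whether readouts of the pathway differ without GDE2. The 10 genes were taken by name from the GENCODE vM21 annotation of the mm10 mouse genome. Assembled transcripts belonged to them where exons overlapped on the same strand, which gave 107 of 199044 transcripts over the 6 libraries, and 14 to 19 in each library.

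In canonical Wnt signalling, a Wnt ligand bound to a Frizzled receptor and its LRP coreceptor stops a complex built on the Axin scaffold from marking beta-catenin for destruction. Beta-catenin then reaches TCF/LEF factors on DNA and raises their targets. Several targets damp the signal: AXIN2 rebuilds the destruction complex, NKD proteins bind Dishevelled, NOTUM strips the lipid from Wnt ligands outside the cell, and ZNRF3 and RNF43 are ubiquitin ligases that remove Frizzled from the surface. R-spondins hold these ligases back through LGR receptors. In the oligodendrocyte lineage Wnt signalling is known to hold back the differentiation of precursors, and Axin2 is widely used as its readout.

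Levels are in FPKM, fragments scaled to transcript length and library depth, which can be compared between genes. A gene's level was the FPKM summed over the transcripts covering a base and averaged over its counted bases, which belong to it alone among genes of that strand and were covered by an assembled transcript in 3 or more libraries. Fold changes and log2 differences are Gde2KO over WT after adding 0.1 FPKM, which understates changes of low genes. Genes with a mean of at least 1 FPKM were tested with limma, 12894 in all, with p-values adjusted by the Benjamini-Hochberg method and called under 0.05. Relative depth was 0.945 to 1.14 in Gde2KO and 0.910 to 1.03 in WT libraries, where 1 is the average. The targeted gene was low in the Gde2KO libraries, with Gdpd5 at 1.24, 1.20 and 0.946 FPKM in Gde2KO against 5.38, 6.54 and 5.95 FPKM in WT (fold 0.202, 95% interval 0.162 to 0.253, limma adjusted p = 0.00526). The third Gde2KO library stood apart in its assembly, since the introns of 56.2% of its spliced transcripts matched an annotated transcript in full, where the other libraries ranged between 49.3% and 49.8%. The first Gde2KO library alone held the Y-linked gene Ddx3y, at 21.7 FPKM, and alone had Xist listed at 0. By these genes it looks male and the other libraries female, so sex appears uneven between the genotypes. The part of sex in the values was not tested. The first Gde2KO library also had few meningeal and fibroblast transcripts, whose 12 markers summed to 78.0, 173 and 158 FPKM in Gde2KO against 155, 148 and 189 FPKM in WT, with all 12 assembled.

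The promoters of Axin2 and Tnfrsf19 are shown because their first exons are compared in the results, and that of Lgr6 because its libraries did not overlap between the genotypes. Each window runs from 250 bases before to 50 after a RefSeq start (build GRCm38.p6, which shares mm10 coordinates) and is written 5′ to 3′ on the strand of the gene. Capitals mark CTTTGAA or CTTTGAT, cores of the TCF/LEF motif that share all but their last base, searched on both strands.
Axin2, chr11:108920099-108920398, plus strand: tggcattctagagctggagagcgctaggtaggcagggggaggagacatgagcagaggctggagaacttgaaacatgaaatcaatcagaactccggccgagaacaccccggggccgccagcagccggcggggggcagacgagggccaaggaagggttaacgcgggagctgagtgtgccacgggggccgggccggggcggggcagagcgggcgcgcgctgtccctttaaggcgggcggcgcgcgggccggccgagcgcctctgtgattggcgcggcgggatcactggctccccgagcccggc
Lgr6, chr1:135105227-135105526, minus strand: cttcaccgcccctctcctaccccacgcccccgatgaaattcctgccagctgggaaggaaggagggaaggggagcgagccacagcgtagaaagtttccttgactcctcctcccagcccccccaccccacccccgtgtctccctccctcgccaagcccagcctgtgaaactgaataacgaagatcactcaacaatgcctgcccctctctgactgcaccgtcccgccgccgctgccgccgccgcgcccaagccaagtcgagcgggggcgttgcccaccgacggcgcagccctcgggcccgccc
Tnfrsf19 upstream, chr14:61046806-61047105, minus strand: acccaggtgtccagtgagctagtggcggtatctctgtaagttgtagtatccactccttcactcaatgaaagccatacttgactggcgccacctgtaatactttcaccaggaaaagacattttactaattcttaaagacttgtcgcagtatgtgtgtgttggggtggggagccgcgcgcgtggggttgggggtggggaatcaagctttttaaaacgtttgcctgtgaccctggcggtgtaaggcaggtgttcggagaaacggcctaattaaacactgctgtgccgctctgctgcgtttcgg
Tnfrsf19 downstream, chr14:61037938-61038237, minus strand: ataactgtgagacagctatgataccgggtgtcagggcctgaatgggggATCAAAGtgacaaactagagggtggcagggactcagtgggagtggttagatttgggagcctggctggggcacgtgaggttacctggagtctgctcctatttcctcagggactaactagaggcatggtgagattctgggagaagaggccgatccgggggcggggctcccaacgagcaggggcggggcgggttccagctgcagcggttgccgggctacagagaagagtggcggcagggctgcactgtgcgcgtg
The downstream Tnfrsf19 window held 1 match, CTTTGAT on the opposite strand, 202 bases before the start. The other 3 windows printed, and those of Nkd1, Nkd2 and Rnf43, held none of these letters. The nearest assembled start lay 6080 bases from the Nkd1 start and 18530 bases from the downstream Rnf43 start. Those windows therefore do not cover the starts in use. The upstream Rnf43 start had an assembled start within 500 bases in 4 libraries. Of 32841 promoter windows of the same length, 2840 (8.65%) held a match. Transcripts began within 500 bases of the Axin2, Lgr6 and upstream Tnfrsf19 starts in all 6 libraries, and of the downstream Tnfrsf19 start in 5. For Lgr6 in Gde2KO replicate 1 and in WT replicates 2 and 3, the transcript there was a short piece, and the main transcript began far downstream.

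The genes spanned a wide range of levels in the cord. Apcdd1, a membrane protein that inhibits Wnt signalling at the cell surface, was highest with a mean of 14.0 FPKM over the 6 libraries, followed by Tnfrsf19, a receptor of the TNF receptor superfamily, at 11.4 FPKM and Nkd1 at 8.53 FPKM. The median gene tested stood at 7.91 FPKM. Bambi, a pseudoreceptor of the TGF-beta and BMP pathways that lacks a kinase, followed at 3.29 FPKM. Each of these 4 was higher in every library than the next gene in order was in any. Lgr6, a receptor for R-spondins, came next at 2.27 FPKM, with Axin2 at 2.13, Znrf3 at 1.86 and Nkd2 at 1.85 FPKM, and the ranges of these neighbours overlapped. Notum at 1.04 FPKM and Rnf43 at 0.806 FPKM lay below all of these in every library and overlapped each other. Rnf43 did not reach the mean of 1 FPKM and was not tested, so 9 of the 10 genes were.

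None of the 9 genes tested passed between the genotypes by limma, against 15 of 12894 genes tested (0.116%), 0.0776% lower and 0.0388% higher. At an unadjusted p under 0.05 there were 2, Bambi and Tnfrsf19, against 3.91% of all genes. The log2 difference was below 0 in 7 of 9, against 49.9% of all genes, and its median was -0.16, against 0.00 over all genes. Notum, among the 7, reached the mean of 1 FPKM through WT, with means of 0.884 FPKM in Gde2KO and 1.19 FPKM in WT. With no minimum mean, 8 of the 10 genes were lower, with a median of -0.17. In 3 of the 9 genes tested, Bambi, Tnfrsf19 and Lgr6, every Gde2KO library was lower than every WT library, against 5.79% of all genes, and none was higher throughout, against 5.06%. This count depends on the measure: by fragments per gene Bambi and Lgr6 overlapped and Znrf3 was higher throughout, and by the plain sum of transcript FPKM all of the genes overlapped. With 3 libraries a group the smallest exact permutation p of a single gene is 0.1, so no such test is given. In bulk tissue, fewer cells of a type and less RNA per cell cannot be told apart.

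**Figure D1:**
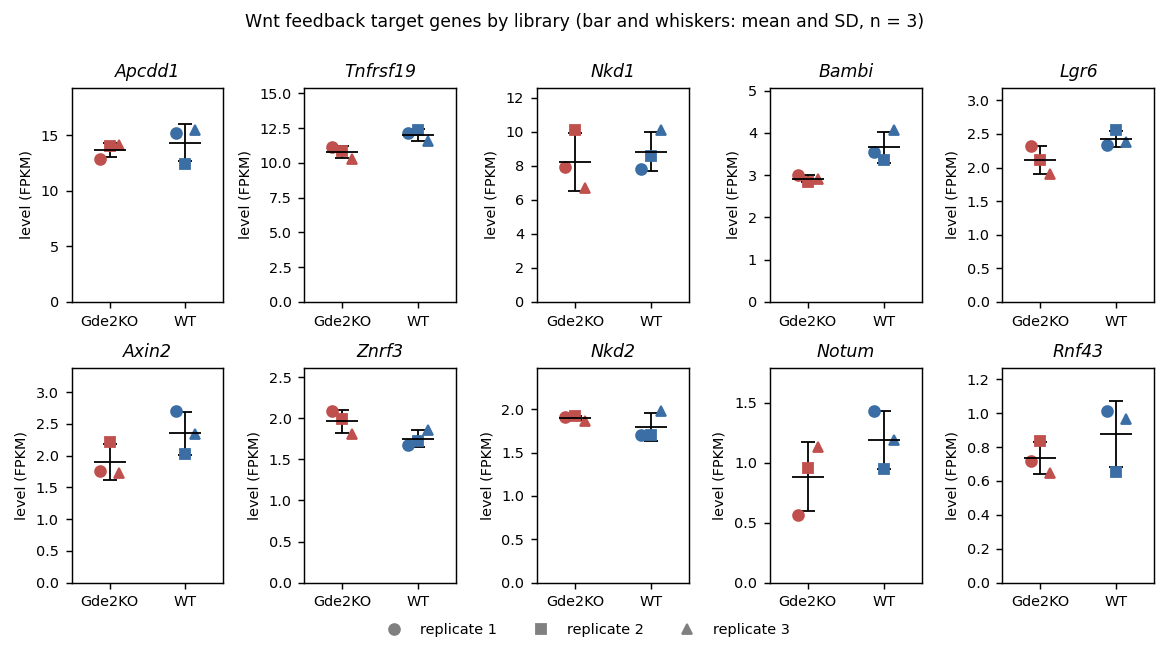
Level in FPKM (vertical axes, from 0) of the 10 Wnt feedback target genes in the 3 Gde2KO and 3 WT libraries, with mean and SD (n = 3 each) as bar and whiskers. Bambi, Tnfrsf19 and Lgr6 were lower in every Gde2KO library than in any WT library, and the groups of the other 7 genes overlapped.

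Among the inhibitors inside the cell, Axin2 (chromosome 11, 108920349 to 108950783, plus strand) was at 1.76, 2.22 and 1.73 FPKM in Gde2KO against 2.70, 2.03 and 2.34 FPKM in WT. The groups overlapped through the second replicates, the highest of Gde2KO and the lowest of WT. Axin2 averaged 1.90 ± 0.276 FPKM in Gde2KO and 2.35 ± 0.338 FPKM in WT (SD, n = 3 each). The fold was 0.815 (95% interval 0.632 to 1.05; limma adjusted p = 0.882). By fragments per gene, in which assembled length is no divisor, the fold was 0.805 (0.627 to 1.03; adjusted p = 0.866). Axin2 shares 209 exonic bases with Gm11670 on the opposite strand, and the strandedness of the kit is not given, so reads of the pair cannot be told apart there.

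The Axin2 transcripts used several first exons, and the most upstream of them held less FPKM in every Gde2KO library than in any WT library, without passing the test. This measure was chosen after its values were seen. The most upstream exon, the one that begins at the promoter shown above, ends at base 108920561 of chromosome 11 and is the first exon of the annotated coding transcript ENSMUST00000052915.13. Transcripts starting with it held 0.635, 0.811 and 0.719 FPKM in Gde2KO against 1.84, 1.30 and 1.39 FPKM in WT, with no overlap. They averaged 0.722 ± 0.0880 FPKM in Gde2KO and 1.51 ± 0.289 FPKM in WT (SD, n = 3 each), and the fold of 0.513 had bounds of 0.365 and 0.722. First exons were tested where they were annotated, assembled in all 6 libraries and had a mean of at least 1 FPKM, 10604 in all. This exon reached that mean through WT, as its Gde2KO mean lay below 1 FPKM, so its rank is no support for a difference. The unadjusted limma p was 0.00303, which ranked 36 among them, and the adjusted p of 0.802 did not pass. With no minimum mean the log2 difference was -0.96, with a limma adjusted p of 0.827. Groups did not overlap, with Gde2KO lower, for 5.59% of the 10604 first exons, and 4.39% had an unadjusted p under 0.05. Of the 10604, 4 passed (0.0377%), and 0.00943% passed with Gde2KO lower.

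As a share of the FPKM of all multi-exon Axin2 transcripts, the upstream first exon held 29.1%, 33.3% and 38.6% in Gde2KO against 64.6%, 60.7% and 57.0% in WT. The lowest WT share lay well above the highest Gde2KO share. The share was tested for 1704 first exons under the same minimum of 1 FPKM, of genes that also had other assembled transcripts in all libraries. Axin2 ranked 12 among them by unadjusted limma p (0.00611), and the adjusted p of 0.682 did not pass. Its exon again met the minimum through WT. None of the 1704 passed, 5.40% had an unadjusted p under 0.05, and 5.69% had non-overlapping groups with Gde2KO lower.

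What made up the rest of the Axin2 FPKM, given here as deposited, differed from library to library. A first exon ending at base 108921193 was assembled in 5 libraries, at 1.61 FPKM in Gde2KO replicate 2 and 0.370 FPKM in Gde2KO replicate 3 against 1.05, 0.517 and 1.05 FPKM in WT. Gde2KO replicate 3 and WT replicate 2 held a first exon ending at 108921996, at 0.345 FPKM and 0.338 FPKM. Only Gde2KO replicate 3 held a first exon ending at 108921365, at 0.430 FPKM. Gde2KO replicate 1 held instead a transcript starting with an exon that ends at 108924102, at 1.53 FPKM, and its upstream transcript had 9 exons and ended early, where the other 5 libraries had 11 exons. Levels of single transcripts were estimated by the assembler from overlapping sets, so which others were assembled enters each share.

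**Figure D2:**
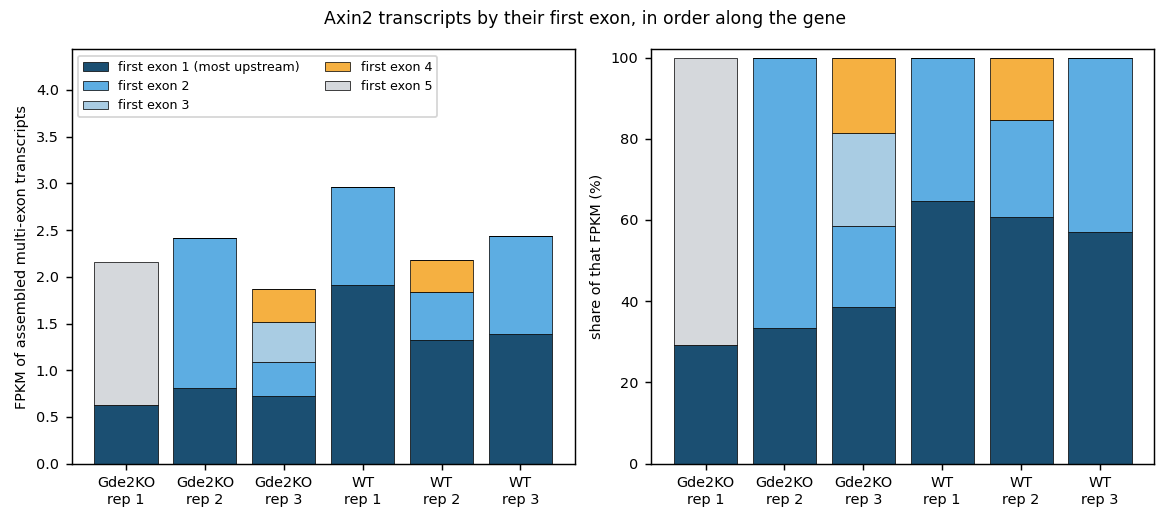
FPKM (left axis) and share of FPKM in percent (right axis) of the multi-exon Axin2 transcripts in each Gde2KO and WT library, stacked by first exon in order along the gene. The most upstream exon, at the base of each bar, held 29.1% to 38.6% in Gde2KO and 57.0% to 64.6% in WT, and the exons above it differed between libraries.

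Nkd1 and Nkd2 encode the naked cuticle homologs, inhibitors that act on Dishevelled. Nkd1 (chromosome 8, 88521354 to 88594884, plus strand) was at 7.95, 10.1 and 6.69 FPKM in Gde2KO against 7.82, 8.55 and 10.1 FPKM in WT. The groups overlapped over most of their range, with a fold of 0.928 (0.688 to 1.25; limma adjusted p = 0.905). The assembled models of Nkd1 came in short and long forms in both genotypes. Models of 1517 to 1685 bases were assembled in Gde2KO replicate 1 and in WT replicates 1 and 2, with last exons of 625 bases in Gde2KO against 610 and 604 bases in WT for the longest model. Models of 4282 to 4348 bases were assembled in Gde2KO replicates 2 and 3 and in WT replicate 3, with last exons of 3305 and 3334 bases in Gde2KO against 3378 bases in WT. The same annotated 10-exon chain was at 14.6, 10.1 and 6.69 FPKM in Gde2KO against 21.1, 23.2 and 10.1 FPKM in WT, high where the model was short. These Nkd1 values overlapped between the genotypes (fold 0.586, 0.288 to 1.19). By fragments per gene the libraries were closer, at 35.9, 43.3 and 28.6 in Gde2KO against 35.7, 37.4 and 44.1 in WT (fold 0.911, 0.688 to 1.21). The log2 difference of Nkd1 was -0.59 over bases assembled in all 6 libraries and -0.54 by the plain sum, against -0.11 as tested.

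**Figure D3:**
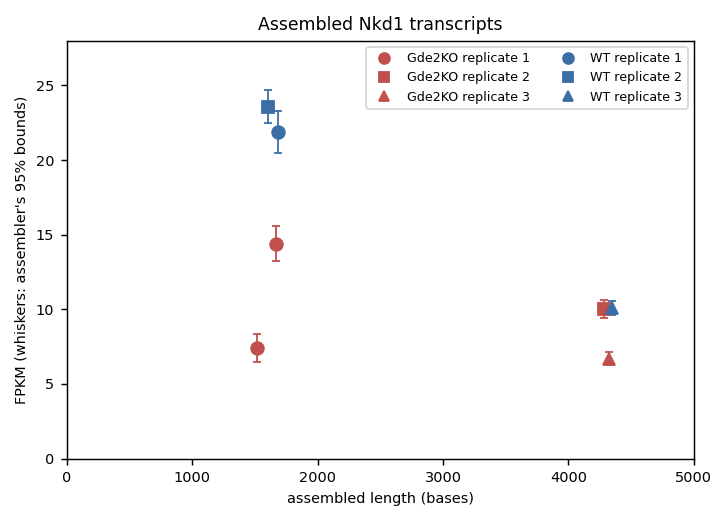
FPKM (vertical axis, with the assembler's 95% bounds) against assembled length in bases (horizontal axis) of each Nkd1 transcript in the Gde2KO and WT libraries. Short models of 1517 to 1685 bases reached up to 23.6 FPKM and long models of 4282 to 4348 bases up to 10.1 FPKM, and each genotype held both kinds.

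Nkd2 (chromosome 13, 73818534 to 73847631, minus strand) was nearly level, at 1.91, 1.92 and 1.87 FPKM in Gde2KO against 1.70, 1.70 and 1.98 FPKM in WT. WT replicate 3 was the highest library, above all of Gde2KO, and the other WT libraries were the lowest, with a fold of 1.06 (0.904 to 1.24; limma adjusted p = 0.884). The 10-exon chain of the annotated transcript ENSMUST00000022051.13 was assembled in all 6 libraries. The annotated 9-exon chain ENSMUST00000118096.1 was assembled in Gde2KO replicates 2 and 3, at 0.648 and 0.253 FPKM, and in no WT library.

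Notum (chromosome 11, 120653788 to 120661175, minus strand), the secreted carboxylesterase that inactivates Wnt ligands, was at 0.566, 0.958 and 1.13 FPKM in Gde2KO against 1.43, 0.947 and 1.19 FPKM in WT. Gde2KO replicate 1 was the lowest library and the remaining libraries overlapped, with a fold of 0.748 (0.454 to 1.23; limma adjusted p = 0.882). In Gde2KO replicate 1, the library with few meningeal and fibroblast transcripts, 5 exons and 1139 bases of Notum were assembled, against 10 or 11 exons in the other 5 libraries. Without that library the log2 difference of Notum was -0.16, against -0.42 with it. The markers' part in the low value was not tested. Notum shares 918 exonic bases with antisense genes, Notumos among them, where reads cannot be assigned to a strand.

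Znrf3, the one of the ubiquitin ligases for Frizzled that was tested, had a positive log2 difference, as did Nkd2. Znrf3 (chromosome 11, 5276324 to 5444847, minus strand) was at 2.09, 1.99 and 1.81 FPKM in Gde2KO against 1.67, 1.72 and 1.86 FPKM in WT. Only the lowest Gde2KO and the highest WT library overlapped, with a fold of 1.11 (0.948 to 1.31; limma adjusted p = 0.882). By fragments per gene the groups did not overlap, at 14.1, 13.5 and 12.9 in Gde2KO against 11.6, 11.8 and 12.6 in WT, with a fold of 1.12 (0.997 to 1.27; limma adjusted p = 0.866). By the plain sum, which adds the single-exon pieces assembled in 5 libraries, Znrf3 was at 4.50, 6.35 and 3.89 FPKM in Gde2KO against 3.18, 1.74 and 4.09 FPKM in WT, with overlap (fold 1.67, 0.892 to 3.14; limma adjusted p = 0.921). An 8-exon chain of Znrf3 that matches no annotated transcript as a whole was assembled in all 6 libraries, at 2.08, 1.73 and 1.81 FPKM in Gde2KO against 1.77, 1.75 and 1.89 FPKM in WT.

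Rnf43 (chromosome 11, 87662722 to 87735539, plus strand) was at 0.718, 0.838 and 0.649 FPKM in Gde2KO against 1.01, 0.656 and 0.964 FPKM in WT. The highest library was WT, but WT replicate 2 lay among those of Gde2KO. Rnf43 was assembled in fragments, with 2 to 4 transcripts per library and 15 multi-exon chains in all. Its 9-exon annotated coding chain was present in Gde2KO replicates 1 and 3, at 0.595 and 0.547 FPKM, and in no WT library.

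Lgr6 (chromosome 1, 134983301 to 135105276, minus strand) was at 2.32, 2.11 and 1.90 FPKM in Gde2KO against 2.34, 2.55 and 2.38 FPKM in WT. The groups were separated by a narrow gap, between Gde2KO replicate 1 and WT replicate 1. Lgr6 averaged 2.11 ± 0.207 FPKM in Gde2KO and 2.42 ± 0.114 FPKM in WT (SD, n = 3 each). Its fold was 0.875 (0.741 to 1.03; limma adjusted p = 0.882). By fragments per gene the groups overlapped, with 15.8 in Gde2KO replicate 1 and 15.8 in WT replicate 1. Superficial dorsal horn markers are a readout of how far the dissection reached. Over 12 genes they summed to 347, 323 and 247 FPKM in Gde2KO against 289, 275 and 283 FPKM in WT. Nmu and Trh had no counted bases. The Gde2KO libraries ranked as for Lgr6. They also did so by astrocyte, oligodendrocyte precursor, newly formed oligodendrocyte and endothelial markers, so the order is not particular to the dorsal horn list. Every WT sum of dorsal horn markers lay below those of Gde2KO replicates 1 and 2, whereas Lgr6 was higher in every WT library. The part of these markers in the Lgr6 values was not tested. The complete 18-exon chain was assembled in Gde2KO replicates 2 and 3 and WT replicate 1, at 2.098 and 1.91 FPKM in Gde2KO against 2.43 FPKM in WT.

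Bambi had the smallest unadjusted p of the 9 genes. Bambi (chromosome 18, 3507923 to 3516404, plus strand) was at 3.001, 2.85 and 2.90 FPKM in Gde2KO against 3.56, 3.36 and 4.06 FPKM in WT. The Gde2KO libraries lay close together below all of WT, which spread more. It averaged 2.92 ± 0.0787 FPKM in Gde2KO and 3.66 ± 0.362 FPKM in WT (SD, n = 3 each). The fold was 0.805 (0.691 to 0.938), with an unadjusted p of 0.0138 and a limma adjusted p of 0.882. The 3-exon annotated chain was complete in the 3 WT libraries and in Gde2KO replicate 3. Gde2KO replicate 1 held a 2-exon piece of 971 bases and a single-exon piece of 389 bases, and Gde2KO replicate 2 held 4 exons, the first of them upstream of the annotated start. With the FPKM of such pieces added up, Bambi stood at 5.48, 3.07 and 3.10 FPKM in Gde2KO against 3.58, 3.40 and 4.07 FPKM in WT, a log2 difference of 0.03. By fragments per gene the groups overlapped, at 4.22, 5.42 and 4.86 in Gde2KO against 5.08, 6.26 and 5.68 in WT (fold 0.853, 0.681 to 1.07; limma adjusted p = 0.866).

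Apcdd1 (chromosome 18, 62922231 to 62961179, plus strand) was at 12.9, 14.0 and 14.1 FPKM in Gde2KO against 15.2, 12.4 and 15.4 FPKM in WT. WT held both the highest libraries and the lowest, with a fold of 0.958 (0.802 to 1.14; limma adjusted p = 0.908). Each library assembled 1 Apcdd1 transcript of 3206 to 3460 bases, 24.9% to 26.9% of the annotated exonic bases of the gene.

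Tnfrsf19 (chromosome 14, 60963875 to 61046490, minus strand), also known as TROY, was at 11.2, 10.8 and 10.3 FPKM in Gde2KO against 12.2, 12.3 and 11.5 FPKM in WT. The spread within each genotype was small and the groups did not overlap. Tnfrsf19 averaged 10.8 ± 0.426 FPKM in Gde2KO and 12.02 ± 0.409 FPKM in WT (SD, n = 3 each). The fold was 0.896 (0.807 to 0.994; unadjusted p = 0.0417; limma adjusted p = 0.882). Fragments per gene also did not overlap, at 49.5, 48.9 and 46.3 in Gde2KO against 54.8, 55.5 and 51.3 in WT (fold 0.896, 0.812 to 0.989). The plain sum turned the direction, with Tnfrsf19 at 17.7, 11.6 and 11.7 FPKM in Gde2KO against 13.5, 13.2 and 12.2 FPKM in WT (log2 difference 0.05). The promoters shown above give rise to annotated 10-exon transcripts that differ in their first exon, and both were assembled in 5 libraries. Transcripts from the upstream promoter were at 6.69 and 4.75 FPKM in Gde2KO replicates 2 and 3 against 6.98, 6.51 and 6.91 FPKM in WT. Those from the downstream promoter, with the TCF/LEF core, were at 4.77 and 6.22 FPKM in Gde2KO replicates 2 and 3 against 6.90, 6.80 and 5.26 FPKM in WT. The downstream share was 41.7% and 56.7% in Gde2KO against 49.7%, 51.1% and 43.2% in WT, so it lay on both sides of the WT shares. Gde2KO replicate 1 held no complete transcript of either kind, but an 8-exon piece at 12.8 FPKM and a 2-exon piece from the upstream start at 4.59 FPKM.

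**Figure D4:**
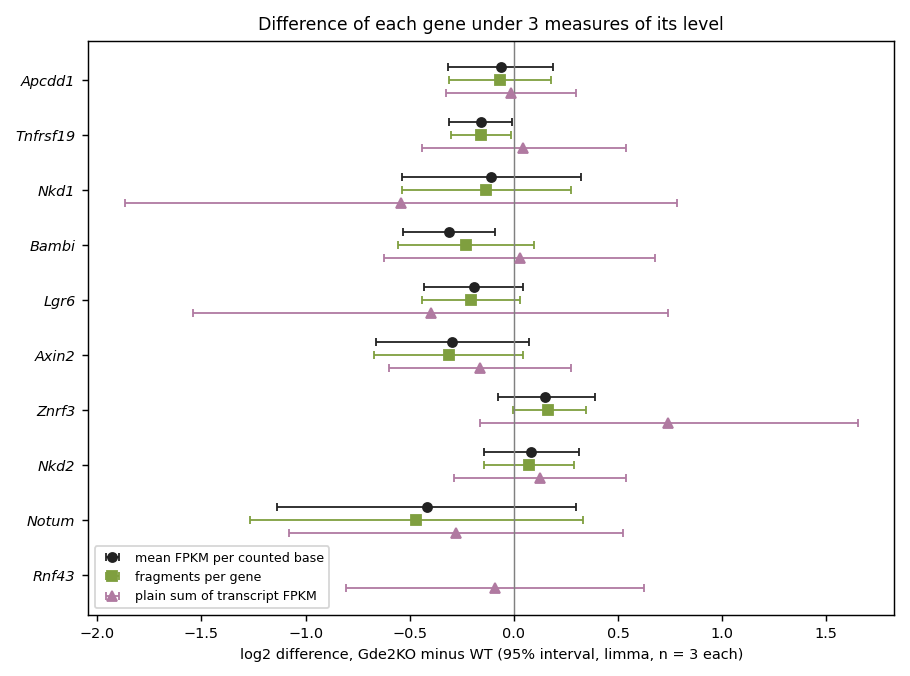
log2 difference, Gde2KO minus WT, with 95% intervals from limma (horizontal axis; n = 3 each) for each gene under 3 measures of its level. Intervals of Tnfrsf19 left out 0 by the mean per base and by fragments per gene, those of Bambi by the mean per base, and the plain sum of transcript FPKM gave wider intervals that all included 0.

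Genes around these in the pathway were described from lists, and none of their members passed. Those named are the 3 tested genes of smallest p in each list in these same data, so their folds are no further support. Among other Wnt target genes, 17 of 32 were tested, 14 had a log2 difference below 0 and 3 above, and the median was -0.21. Another 13 had no counted bases under the symbols searched. The ephrin receptor gene Ephb3 was at 1.84, 1.80 and 1.66 FPKM in Gde2KO against 2.29, 2.17 and 2.05 FPKM in WT (fold 0.824; limma adjusted p = 0.882). The homeobox gene Prox1 was at 4.96, 5.27 and 4.02 FPKM in Gde2KO against 6.13, 5.70 and 5.68 FPKM in WT (fold 0.812). Sox9, a transcription factor of glia, was at 4.96, 6.79 and 4.32 FPKM in Gde2KO against 8.21, 6.42 and 7.39 FPKM in WT, with overlap (fold 0.724). The 6 tested of 8 genes for R-spondins, their receptors and Wnt release had a median of 0.05, and Lgr4, a relative of Lgr6, was at 3.96, 4.03 and 4.56 FPKM in Gde2KO against 3.62, 3.94 and 3.48 FPKM in WT. Rspo2 and Rspo3 both had a fold of 1.07.

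Of the Wnt receptors and coreceptors 13 of 15 were tested, 6 lower and 7 higher, with a median of 0.02. Fzd10 stood at a fold of 0.717 (0.515 to 0.998), Fzd6 at 0.860 (0.718 to 1.03) and Fzd4 at 1.09 (0.932 to 1.28). Of the Wnt ligands 6 of 19 were tested, 4 lower and 2 higher (median -0.11), with Wnt5a at a fold of 0.883, Wnt4 at 0.738 and Wnt7a at 0.843. Wnt4 overlapped, at 0.673, 1.40 and 1.53 FPKM in Gde2KO against 1.61, 1.35 and 1.80 FPKM in WT. Of 24 genes of the destruction complex and nuclear partners, 17 were lower and 7 higher, with a median of -0.07. Btrc, the F-box protein that recognises marked beta-catenin, averaged 14.75 ± 0.226 FPKM in Gde2KO and 19.16 ± 0.143 FPKM in WT (SD, n = 3 each), with no overlap. Btrc had a fold of 0.771 (0.708 to 0.839), and did not pass (limma adjusted p = 0.184). The coactivator gene Bcl9 had a fold of 0.737 and Dvl2 of 0.792, neither of which passed (limma adjusted p = 0.882).

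**Figure D5:**
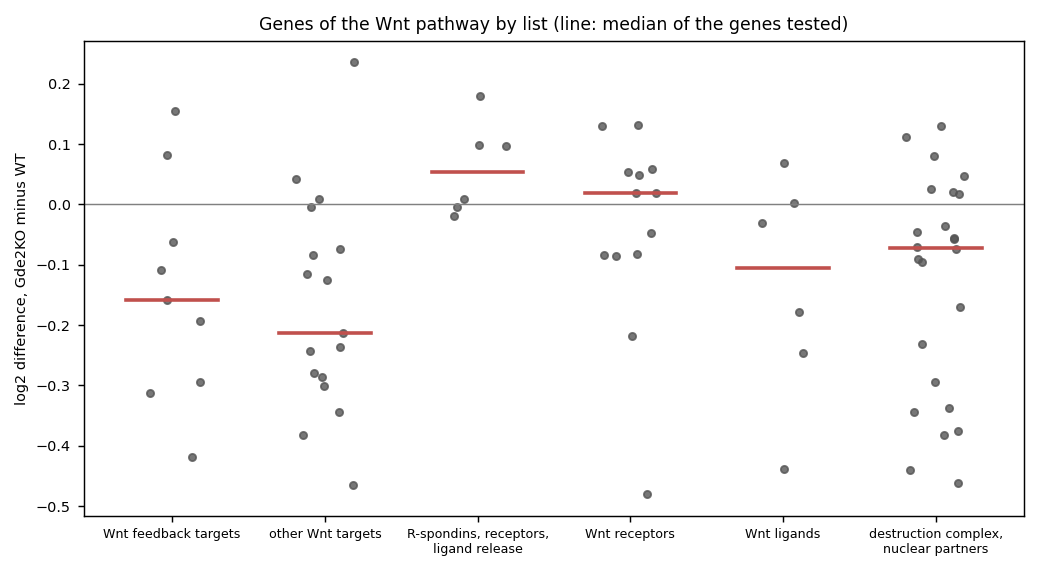
log2 difference, Gde2KO minus WT (vertical axis), of each tested gene of the Wnt feedback targets and of 5 lists of other Wnt pathway genes, with a line at each median. Medians were -0.16 for the feedback targets, -0.21 for other Wnt targets and between -0.11 and 0.05 for the 4 other lists.

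No cell type marker passed between the genotypes, and the lists ran in different directions. The 12 oligodendrocyte precursor markers summed to 452, 451 and 359 FPKM in Gde2KO against 395, 456 and 443 FPKM in WT, with a median log2 difference of 0.06 and 3 of 12 lower. The 13 astrocyte markers summed to 2941, 2875 and 2543 FPKM in Gde2KO against 2872, 2962 and 3038 FPKM in WT (median 0.02, 6 of 13 lower). The 14 endothelial markers summed to 274 to 291 FPKM in Gde2KO against 222 to 266 FPKM in WT, with 7 of 14 lower. All markers of these 3 lists were assembled. Oligodendrocyte and myelin markers were lower in 5 of 15 (median 0.03), and newly formed oligodendrocyte markers in 4 of 9 tested (median 0.09). Neuron markers were lower in 7 of 12 (median -0.02) and microglia markers in 6 of 12 (median 0.01). Motor neuron markers were lower in 2 of 8 tested (median 0.10). They summed to 306, 270 and 288 FPKM in Gde2KO against 224, 283 and 266 FPKM in WT. Some other lists had mostly negative differences: meningeal and fibroblast markers in 9 of 10 tested (median -0.37), ependymal markers in 5 of 6 (median -0.26), Schwann cell markers in 5 of 6 (median -0.14) and mural cell markers in 6 of 10 (median -0.06). Ependymal markers summed to 71.1 to 76.1 FPKM in Gde2KO against 47.8 to 88.8 FPKM in WT, Schwann cell markers to 137 to 364 FPKM in Gde2KO against 218 to 353 FPKM in WT, and mural markers to 108 to 116 FPKM in Gde2KO against 115 to 130 FPKM in WT. Dnah12 of the ependymal and Mbp of the Schwann cell list had no counted bases. The part of these markers in the values of the Wnt feedback targets was not tested.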

How the data were processed

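Polyadenylated RNA libraries, 3 Gde2KO and 3 WT, were used, grouped by genotype as labelled. Per the submitters' processing notes, the authors used FastQC, TopHat2 2.1.1, Cufflinks 2.2.1 and Cuffdiff 2.2.1 with build mm10. Each deposited file is 1 library's own assembly, and its FPKM values with bounds and a whole-number score per transcript were made by the authors; the score was not used. The files hold no counts, so counting error is known only through the assembler's bounds.

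Transcripts of at least 200 bases were matched to GENCODE vM21 genes by exon overlap, those without a strand only where no exon lay opposite. Levels were scaled by median-of-ratios factors (0.989 to 1.04) and put on the log2(FPKM + 0.1) scale. They were tested two-sided in limma 3.58.1 (R 4.3.3), with trend and robust moderation, over genes whose mean reached 1 FPKM and that had 200 or more counted bases. The fit was also run on simulated data with independent noise, for genes above 0 in all 6 libraries. That run left out gaps in the assemblies and is no support for the results here. p-values measure only the spread between these libraries, which may be technical. The labels give the same flow cell for all 6, so no batch could be compared. The 10 genes and the gene lists were chosen with earlier results of these data known. Named genes are the 10, Gdpd5 and the 3 of smallest p in each pathway list, plus the 5 most like Axin2 and Bambi. First exons with a mean of at least 1 FPKM were compared in a fit across 10604 of them, added after the data were seen. A sequence and the result that rests on it are not reported here.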

Additional observations from a re-analysis of the deposited data

How the results depend on the processing

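No Wnt feedback target passed in any of the 21 alternatives, and the number with a log2 difference below 0 was 6 to 8, except with a mean of at least 5 FPKM, where 3 genes were tested and 3 were lower. Their median was -0.20 to -0.12, except with the plain sum of transcript FPKM, where it was -0.05, and there Bambi stood at 0.03 and Tnfrsf19 at 0.05, which turned their direction; that sum adds the FPKM of the pieces of a gene. The same sum put Nkd1 at -0.54, Lgr6 at -0.40, Axin2 at -0.16 and Znrf3 at 0.74, and Nkd1 stood at -0.59 over bases assembled in all 6 libraries. Without 1 library, Lgr6 lay between -0.26 and -0.12 and Notum between -0.60 and -0.16, its nearest to 0 without Gde2KO replicate 1. Nkd1 lay between -0.26 and 0.03 as single libraries were left out, turning without Gde2KO replicate 3. Genes called overall numbered 4 with bases assembled in all 6 libraries, 4 with a pseudocount of 0.01, 4 with zeros taken as missing, 1 above a mean of 5 FPKM, and 10 to 26 without 1 library, the most with WT replicate 2 left out (26, of which 22 higher), then Gde2KO replicate 3 (25) and Gde2KO replicate 2 (24). Gdpd5 lost its call with the plain sum (limma adjusted p = 0.0794) and with replicate number as a block (0.155). Replicate numbers are shared between the genotypes, but same-numbered libraries did not deviate together (correlations of 0.011, 0.036 and -0.067), and with that block 2 genes were called. The upstream Axin2 first exon had a log2 difference of -1.06 to -0.54 and an unadjusted p under 0.05 in 11 of 11 fits, with limma adjusted p values of 0.517 to 0.989. That measure was chosen after its values were seen, and all of these fits used the same assembled transcripts. The count of fits is therefore no independent support. Across all genes the median 95% interval reached 0.28 to each side on the log2 scale, wider than the difference of most of these genes.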

Other observations

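The 5 tested genes whose levels over the 6 libraries ran closest to Axin2, by root mean square difference of centred log2 levels, were Cpxm2 (0.0510), Ubtd2 (0.0522), Sox2 (0.0592), Tnip2 (0.0637) and Sept1 (0.0653). Sox2, a transcription factor of neural progenitors and glia, was at 11.1, 12.9 and 10.1 FPKM in Gde2KO against 15.6, 11.5 and 12.7 FPKM in WT. For Bambi they were Cep57l1 (0.0346), Cd84 (0.0451), Ccdc115 (0.0559), Dusp16 (0.0566) and Adm (0.0593). Dusp16, a phosphatase of MAP kinases, was at 5.41, 5.10 and 5.42 FPKM in Gde2KO against 6.13, 5.70 and 6.69 FPKM in WT. These genes were picked for likeness among 12894 and carry no test.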
